A study of Mus musculus with 8 samples.

Results

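C-type fibroblasts of the adult mouse lung were compared with A-type fibroblasts. The comparison took 4 of the 8 arrays of the study, A1 and A2 for A-type and C1 and C2 for C-type, by their sample titles, and no measured value chose them. Both types were isolated fresh from the lungs of female C57BL/6 mice 12 to 16 weeks old, and the labels name no transgene and no treatment. Lung cell suspensions were stained for the lineage proteins E-Cadherin, CD45, TER119, CD31, Lyve-1 and CD146, and for the fibroblast antigens Thy-1, Sca-1 and Pdgfra. The labels do not state the gates that separate A-type from C-type. Each sample held 50000 cells and was an independent preparation per the labels; the number of mice behind a sample is not given. From each, 10 ng of RNA was amplified, labelled with Cy3 and hybridised to 1 array of a one-colour Agilent design. The other 4 arrays hold B-type fibroblasts and unsorted pulmonary cells, and they entered the fit only through the shared estimate of the spread.

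Fibroblasts build and maintain the extracellular matrix of the lung. Those of the alveolar wall express integrin alpha 8 and its matrix ligand nephronectin and store retinoids, while those of the adventitia, the loose sheath around vessels and airways, carry the progenitor antigens Sca-1 and CD34 and make chemokines and matrix proteins of loose connective tissue. Sca-1 and Thy-1 are small membrane-anchored surface proteins, and Pdgfra is the receptor for platelet-derived growth factor A that marks most lung fibroblasts.

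All values below are log2 signals relative to the 75th percentile of their own array, so 0 is that percentile and a difference of 1 is 2-fold; levels of different genes come from different probes and are not set against each other. The 75th percentile lay at 187 and 188 signal units on the A arrays and at 141 and 114 on C1 and C2, and 66.4% and 60.6% of spots on the A arrays and 60.6% and 54.6% on the C arrays were well above background. The C arrays were thus the dimmer ones, and C2 the dimmest. A and C shared a slide and a scan, but both C arrays lay in 1 row of the slide and both A arrays in the other, so slide row and cell type cannot be told apart. After the filter on dim probes (well above background on both A arrays or on both C arrays), 15505 genes were tested. Across these genes A1 and A2 correlated at r = 0.989 and C1 and C2 at r = 0.943, a description across genes, which are not independent replicates. Because these were sorted bulk samples, fewer cells that express a gene and less RNA per cell cannot be told apart.

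C-type cells had more RNA of the alveolar fibroblast markers Npnt, Nebl and Itga8 and of Lrat, Rgs2, Vipr2 and Il34. They had less RNA of the surface antigen Ly6c1, of the scavenger receptors Scara5 and Scara3, of Aldh1a2, of Ccl11 and of Cd248. Ccl8, not well above background on either C array, was lower as a bound only. Ly6a, the gene of the sorting antigen Sca-1, was also lower. In the limma fit 127 genes passed an adjusted p of 0.05, 0.819% of those tested: 50 were higher in C-type (0.322%) and 77 lower (0.497%). The median difference over all genes tested was -0.09 on the log2 scale, and the absolute differences of the called genes, which were chosen for their size, started at 1.68. Every one of the 127 had both C arrays on 1 side of both A arrays with a gap of at least 2-fold. Without this threshold, groups that did not overlap were common: 3665 genes (23.6%) lay higher and 4812 (31.0%) lower on both C arrays than on both A arrays. Of the called genes, 67 were well above background on all 4 arrays, 34 of them higher and 33 lower in C-type. A further 51 were not well above background on either array of the dimmer type, and of these 35 were lower in C-type, where the arrays were dimmer, and 16 higher; what the dimmer C arrays add to that split was not tested. These 51 genes entered the test only through the type in which they were bright, and their p-values use signals that are not well above background, so they are given below as bounds and their number in either direction is no measure of the types.

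The number of calls moved with the arrays in the fit. With the 4 A and C arrays alone no gene passed, and none passed without A1 or without A2; 36 passed without C2 and 616 without C1, with array weights 333, and with the B-type arrays but not the unsorted cells 491. All 127 kept their direction in each of these fits, which could not turn it, because the groups of each called gene lay apart. The p-values measure the spread between these preparations, 2 per type, and say nothing of mice beyond them.

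**Figure D1:**
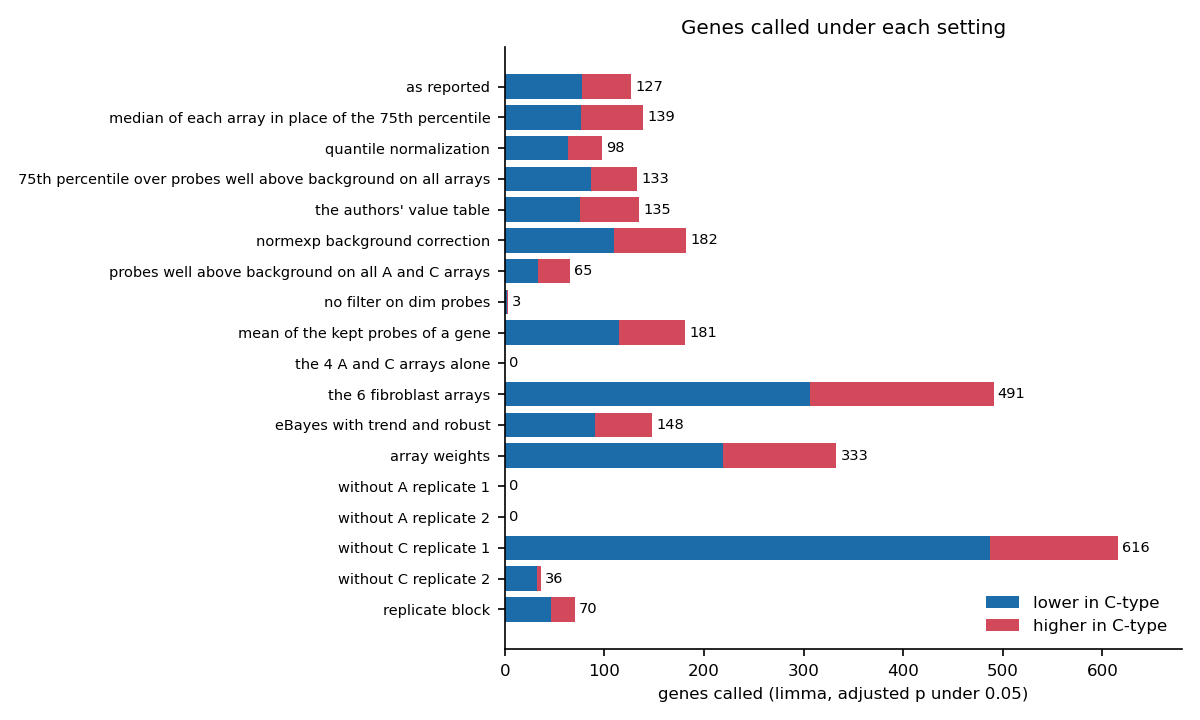
Number of genes called between C-type and A-type (horizontal axis, limma, adjusted p under 0.05) in the reported fit and under each alternative (rows), with genes lower in C-type in blue and higher in C-type in red. The count ran from 0, for the 4 arrays alone and without either A array, to 616 without C1.

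The C arrays were therefore also read one at a time against both A arrays. C1 lay at least 2-fold above both A arrays for 567 genes and at least 2-fold below for 961. C2 did so for 1002 and 1995 genes. With only probes well above background on all 4 arrays, the genes below numbered 489 on C1 and 1118 on C2, and with normexp background correction the genes above and below numbered 164 and 227 on C1 and 333 and 607 on C2. Both C arrays lay at least 2-fold above both A arrays for 292 genes (1.88% of those tested), which were 51.5% of the C1 genes and 29.1% of the C2 genes. Both lay at least 2-fold below for 512 genes (3.3%), which were 53.3% of the C1 genes and 25.7% of the C2 genes. For 36 genes C1 was 2-fold above and C2 2-fold below both A arrays, and for 45 genes the reverse.

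**Figure D2:**
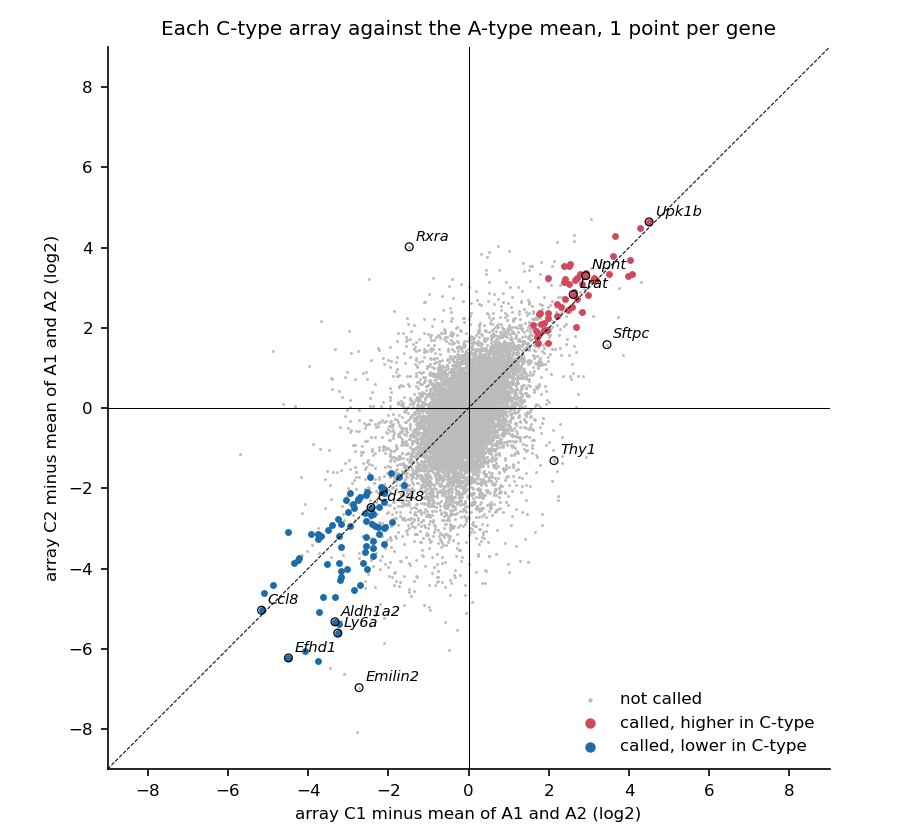
Each of the 15505 tested genes as 1 point: array C1 minus the A mean (horizontal axis, log2) against array C2 minus the A mean (vertical axis, log2). Called genes higher in C-type are red and those lower are blue, and the dashed line marks equal differences on both arrays; Npnt and Cd248 lie near it, while Ly6a and Aldh1a2 lie below it because C2 was lower than C1, and Rxra, Thy1 and Emilin2 are genes on which the C arrays stood far apart.

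Among the sorting antigens, Ly6a, the gene of Sca-1, separated the types. The cells were stained for Sca-1 and the gates are not stated, so what the sort itself adds to this difference was not tested. Its signal was 6.04 on A1 and 6.40 on A2, and 2.96 on C1 and 0.61 on C2. Both C arrays were far below both A arrays, and C2 was lower than C1 by 2.35. The difference was -4.43 ± 0.68 (SE, n = 2 arrays per type), a 21.6-fold lower level in C-type, with adjusted p = 0.0444 across all genes.

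Pdgfra was measured at 3.73 and 3.86 on the A arrays and at 4.21 and 4.48 on the C arrays, a difference of 0.55 ± 0.26 that did not pass (adjusted p = 0.417). Thy1 stood at -0.46 and -0.03 on the A arrays, and the C arrays lay on either side of them, C1 at 1.89 and C2 at -1.56. It did not pass (0.41 ± 0.96, adjusted p = 0.87), and the sign of its difference depends on C1: without that array it was -1.31. Of the 6 lineage antigens, 3 had a gene in the test and none was called. Pecam1, which encodes CD31, was at -2.61 and -1.89 on A and at -2.74 and -3.98 on C, where only 1 array was well above background. Ptprc, which encodes CD45, was at -1.22 and -1.17 on A and at -1.13 and -0.52 on C. Mcam, which encodes CD146, was at 8.71 and 8.58 on A and at 8.52 and 8.72 on C, a difference of -0.03 ± 0.25. The unsorted cells stood alike at 8.81 and 8.96, and what this probe reports was not tested. The genes of Lyve-1 and E-Cadherin were not well above background on both arrays of either type.

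Ly6c1, another member of the Ly6 family of surface antigens, followed the same order. Its signal was 6.63 and 7.07 on the A arrays and 3.52 and 2.13 on the C arrays, with no overlap, and the difference was -4.03 ± 0.46 (adjusted p = 0.0258). Ly6g was also called lower, at -4.17 ± 0.49, but was well above background on only 1 of the C arrays, with -2.10 on C1 and -3.19 on C2. Members of this family are near-identical copies in places, so a probe of one may pick up RNA of another, and which member carries the signal is uncertain.

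**Figure D3:**
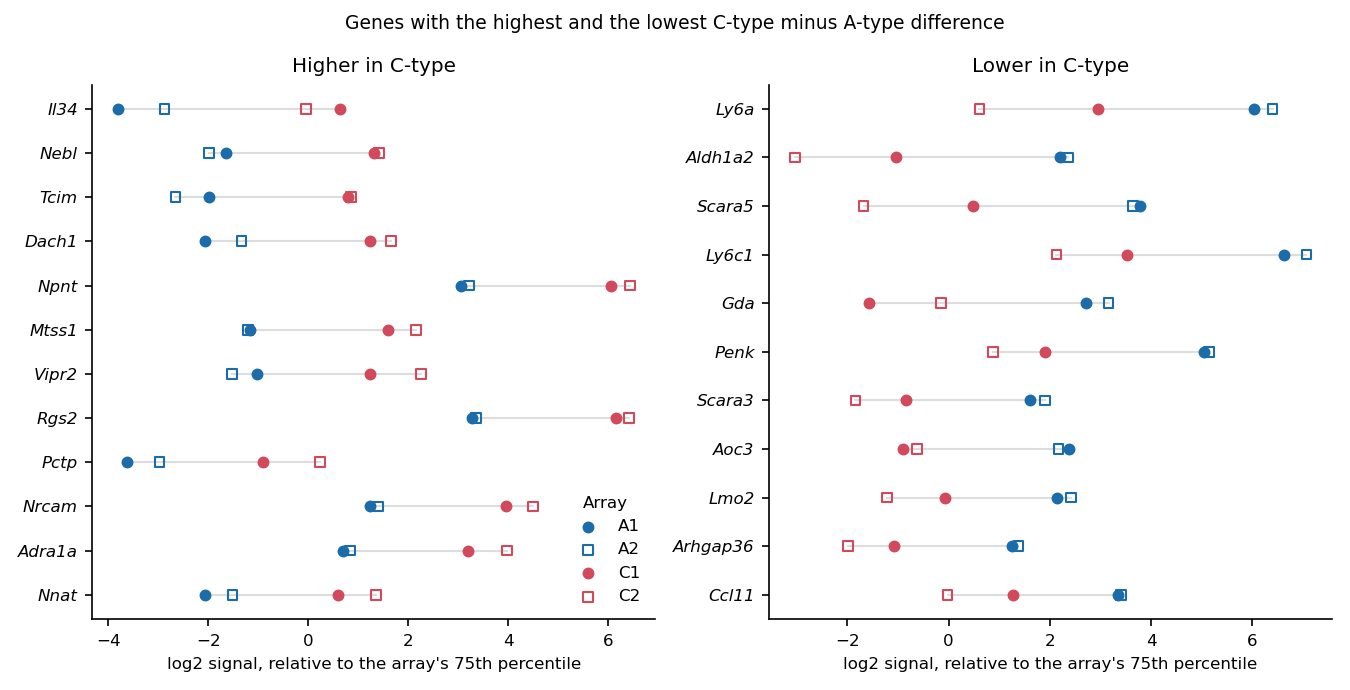
Signal on each array (horizontal axis, log2 relative to the 75th percentile of the array) for 12 called genes with the highest and 11 with the lowest C-type minus A-type difference among genes well above background on all 4 arrays; blue symbols are A1 and A2, red symbols C1 and C2. On the left both C arrays lie to the right of both A arrays for each gene, and on the right, where they lie to the left, the C arrays are spread wider than the A arrays, as for Ly6a, at 2.96 and 0.61 on C against 6.04 and 6.40 on A.

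The alveolar fibroblast list was higher in C-type as far as its members were called. Of its 17 genes 16 were tested (Wnt2 did not pass the filter on dim probes); 6 were called higher, none was called lower and 10 did not pass, against 0.322% and 0.497% of all genes. The median difference of the 16 was 1.49, with 1.48 on C1 and 1.60 on C2, against -0.09 over all genes, and 14 differences were above 0 and 2 below. Both C arrays were at least 2-fold above both A arrays for 10 of the 16 and below for 1, against 1.88% and 3.3% of all genes. This list and the adventitial list below were chosen with earlier results of these data known, so their shares are a description and no test.

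Npnt encodes nephronectin, the basement membrane ligand of integrin alpha 8 beta 1. It was measured at 3.05 and 3.22 on A1 and A2 and at 6.05 and 6.43 on C1 and C2. The C arrays were close together and well clear of the A arrays, with a difference of 3.11 ± 0.30 (8.62-fold, adjusted p = 0.0189), and a further probe of the gene gave 2.99.

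Itga8, the alpha subunit of that receptor, stood at 2.74 and 2.64 on the A arrays and at 4.89 and 5.28 on the C arrays. Ligand and receptor were thus both higher in C-type, Itga8 by 2.40 ± 0.34 (adjusted p = 0.0376). Nebl, which encodes the actin-binding protein nebulette, was at -1.64 and -1.99 on A and at 1.32 and 1.42 on C, a difference of 3.19 ± 0.47 (adjusted p = 0.0377).

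Ces1d, a lipid-hydrolysing carboxylesterase, went from 0.38 and 0.56 on A to 3.31 and 2.86 on C. Col13a1, a transmembrane collagen, was low in A-type at -2.11 and -1.64 and reached 0.54 and 0.85 in C-type. Enpep, the aminopeptidase that trims angiotensin II, had the smallest difference of any called gene, 1.68 ± 0.26, from -0.22 and -0.25 on A to 1.51 and 1.40 on C. In these 3 genes no C array overlapped an A array, and C1 and C2 lay within 0.5 of each other on the log2 scale.

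Among the members that were not called, Inmt, a methyltransferase, was bright on all arrays (7.28 and 7.49 on A, 7.77 and 7.74 on C) and differed by 0.37 ± 0.26. Spon1, a secreted matrix protein, was at 5.18 and 5.08 on A and at 6.27 and 6.71 on C (1.36 ± 0.28, adjusted p = 0.0941). Gdf10, a ligand of the TGF-beta superfamily chosen here after its values were seen, was 1 of the 2 members that ran the other way. It went from 2.79 and 2.89 on A to 1.41 and 1.19 on C, without passing (-1.54 ± 0.26, adjusted p = 0.0535). Without C2 none of the 16 members was called, and 6 were without C1.

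The adventitial fibroblast list lay the other way. All of its 20 genes were tested; 3 were called lower in C-type, none higher, and 17 did not pass, against 0.497% and 0.322% of all genes called lower and higher. Its median difference was -1.20, with -1.21 on C1 and -1.35 on C2, and 19 of the 20 differences were below 0. Both C arrays were at least 2-fold below both A arrays for 10 of the 20, against 3.3% of all genes.

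Cd248, which encodes the surface glycoprotein endosialin, was at 5.42 and 5.48 on the A arrays and at 3.02 and 2.97 on the C arrays. The arrays of each type differed by less than 0.1, and the types by -2.45 ± 0.27 (5.48-fold lower in C-type, adjusted p = 0.0216). Ccl11, the eosinophil-attracting chemokine eotaxin, stood at 3.35 and 3.40 on A, at 1.28 on C1 and at -0.02 on C2, a difference of -2.75 ± 0.43 (adjusted p = 0.0455).

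Sema3c, a secreted guidance protein, was at 1.56 and 2.03 on A and at -0.32 and -0.34 on C (-2.12 ± 0.28, adjusted p = 0.0306), and a further probe gave -2.21. Serpinf1 and Dcn, which were not called, were also lower on both C arrays than on either A array, as were 31.0% of all genes. Dcn, which encodes the proteoglycan decorin, was at 7.98 and 8.18 on A, at 6.62 on C1 and at 5.33 on C2 (-2.11 ± 0.42, adjusted p = 0.0849), and Serpinf1, which encodes pigment epithelium-derived factor, differed by -1.05 ± 0.32 (adjusted p = 0.223). Without C2 no member was called, and without C1 there were 8.

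**Figure D4:**
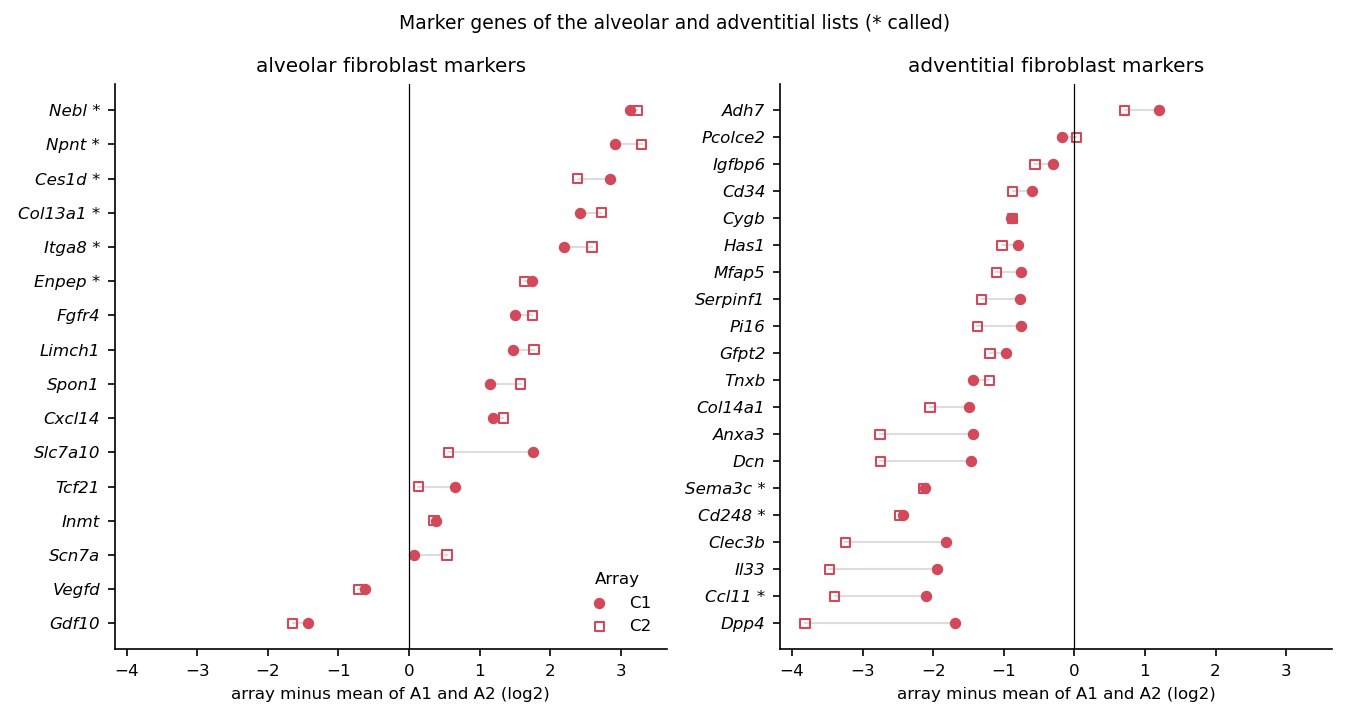
C1 (filled circles) and C2 (open squares), each minus the A mean (horizontal axis, log2), for the tested members of the alveolar and adventitial fibroblast lists, with called genes marked by an asterisk. Alveolar members lie mostly to the right of 0 and adventitial members mostly to the left, with medians of 1.49 and -1.20.

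Genes of vitamin A metabolism, which alveolar fibroblasts are known for, did not move as 1 group. Of 17 tested, 1 was called higher, 1 lower and 15 did not pass, against 0.322% and 0.497% of all genes, with a median of 0.02. Lrat, which esterifies retinol for storage, was at 2.96 and 2.72 on A and at 5.45 and 5.67 on C, and was higher in C-type by 2.72 ± 0.32 (6.60-fold, adjusted p = 0.0267). Aldh1a2, which makes retinoic acid from retinal, was at 2.21 and 2.36 on A, at -1.04 on C1 and at -3.04 on C2. Both C arrays were below both A arrays by more than 3, and the difference was -4.33 ± 0.59 (adjusted p = 0.0344).

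The other enzymes of the Aldh1a family, named after their values were seen, were not called. Aldh1a1 was at 5.01 and 5.20 on A and at 6.84 and 7.05 on C and narrowly missed the threshold (1.84 ± 0.30, adjusted p = 0.051). Aldh1a3 was at 2.38 and 2.55 on A, at -0.32 on C1 and not well above background on C2; the gene did not pass (adjusted p = 0.185). Adh1, an alcohol dehydrogenase that acts on retinol, was alike on all 4 arrays, with a difference of -0.10 ± 0.30.

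The promoters of Npnt and Lrat, higher in C-type, and of Ccl8 and Aldh1a2, lower in C-type, are shown so that the start regions of genes that moved in opposite directions can be read side by side. Each run is the 250 bases before the first start that RefSeq lists for the gene on build GRCm38.p6, 5′ to 3′ on the strand of the gene, with matches on either strand in capitals, to TATAAA (the core of the TATA box), to CCAAT (the box read by the factor NF-Y) and to GGGCGG (the box read by Sp1). Npnt lies on the minus strand (chr3:132950292-132950541), Lrat on the minus strand (chr3:82903975-82904224), Ccl8 on the plus strand (chr11:82114935-82115184) and Aldh1a2 on the plus strand (chr9:71215539-71215788).
Npnt: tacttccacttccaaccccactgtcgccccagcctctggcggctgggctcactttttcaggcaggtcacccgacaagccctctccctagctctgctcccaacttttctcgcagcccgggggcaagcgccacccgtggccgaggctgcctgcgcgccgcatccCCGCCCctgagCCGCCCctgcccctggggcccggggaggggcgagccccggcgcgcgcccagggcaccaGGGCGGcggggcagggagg
Lrat: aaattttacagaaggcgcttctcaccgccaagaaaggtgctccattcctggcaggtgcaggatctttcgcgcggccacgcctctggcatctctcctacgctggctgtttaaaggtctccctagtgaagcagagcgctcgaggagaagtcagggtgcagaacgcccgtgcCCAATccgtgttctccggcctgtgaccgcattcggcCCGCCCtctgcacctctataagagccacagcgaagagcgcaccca
Ccl8: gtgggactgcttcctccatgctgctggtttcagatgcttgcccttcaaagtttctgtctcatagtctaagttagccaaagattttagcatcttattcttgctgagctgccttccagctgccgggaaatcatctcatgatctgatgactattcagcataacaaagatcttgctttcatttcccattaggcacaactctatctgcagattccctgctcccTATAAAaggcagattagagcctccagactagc
Aldh1a2: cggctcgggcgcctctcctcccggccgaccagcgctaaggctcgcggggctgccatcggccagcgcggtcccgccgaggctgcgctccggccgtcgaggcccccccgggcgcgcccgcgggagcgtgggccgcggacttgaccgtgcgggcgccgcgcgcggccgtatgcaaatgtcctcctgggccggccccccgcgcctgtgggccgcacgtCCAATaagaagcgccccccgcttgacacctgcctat
Npnt holds 3 matches to GGGCGG and no TATAAA, and 74.0% of its bases are G or C. Ccl8 holds 1 TATAAA and no GGGCGG at 44.8% G or C. Lrat and Aldh1a2 each hold 1 CCAAT, at 59.2% and 77.6% G or C. Windows of the same length were found for 34 of the 50 genes higher in C-type, 49 of the 77 lower and 11876 of the 15505 tested. TATAAA was in 8.82% of the first, 16.3% of the second and 8.20% of the third; GGGCGG was in 61.8%, 49.0% and 54.0%, and CCAAT in 23.5%, 34.7% and 35.9%. These shares are a description of the letters in the window and no test of a factor.

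Receptors that sense vasoactive and local signals gave 2 calls higher and 1 lower among 30 tested, against 0.322% and 0.497% of all genes, with a median of -0.08; the 1 lower call is a bound. Vipr2, a receptor for vasoactive intestinal peptide, was at -1.03 and -1.53 on A and at 1.23 and 2.26 on C (3.02 ± 0.41, adjusted p = 0.0344), and its other probes gave 2.17 and 2.23. Adra1a, the alpha 1A adrenergic receptor, was at 0.70 and 0.84 on A and at 3.19 and 3.98 on C (2.81 ± 0.41, adjusted p = 0.0377). Both were higher on each C array than on either A array, and C2 was the higher of the C arrays.

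Agtr1a, the angiotensin II type 1a receptor, ran the other way. It was at -1.12 and -1.29 on the A arrays and not well above background on either C array, a level at least 5.32-fold lower in C-type. The bound sets the A mean against, on each C array, the higher of the dimmest signal well above background and the probe's own signal; the same rule is used for every "at least" below.

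Rgs2, which shortens signalling through Gq-coupled receptors, was at 3.28 and 3.35 on A and at 6.15 and 6.41 on C, 7.82-fold higher (2.97 ± 0.32, adjusted p = 0.0208). Ppp1r14a, an inhibitor of myosin phosphatase, and Prkg2, a kinase activated by cyclic GMP, both named after their values were seen, were higher by 1.81 ± 0.29 and 2.24 ± 0.34. The smooth muscle list itself had no call among 9 tested genes and a median of 0.09.

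Chemokines and cytokines gave 1 call higher and 2 lower among 24 tested, against 0.322% and 0.497% of all genes, with a median of -0.54; 1 of the lower calls, Ccl8, is a bound. Il34, a ligand of the colony stimulating factor 1 receptor of macrophages, was at -3.81 and -2.88 on A and at 0.64 and -0.05 on C, and was higher in C-type by 3.64 ± 0.56 (adjusted p = 0.0445). Ccl8, a chemokine that attracts monocytes, was at 0.71 and 0.93 on A and not well above background on either C array, at least 21.7-fold lower in C-type. With Ccl11 above, both chemokines that were called were lower in C-type. Il1r2, the decoy receptor of interleukin 1, was likewise at least 6.41-fold lower.

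Growth factors and their inhibitors were called one gene at a time. In the BMP and TGF-beta pathway 1 gene was called higher, 1 lower and 31 did not pass, against 0.322% and 0.497% of all genes. Bmp7, a ligand, was at -2.54 and -3.04 on A and at -0.11 and -0.77 on C (2.35 ± 0.34, adjusted p = 0.0377). Fst, which encodes follistatin, a binding protein that blocks activins and some BMPs, was at -0.88 and -0.52 on A and well above background on only 1 of the C arrays, with -3.32 on C1 and -4.57 on C2 (-3.24 ± 0.51, adjusted p = 0.0455). With signals raised to the dimmest level well above background on each array, its difference was -2.67.

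The FGF, HGF and PDGF pathway had 2 calls lower and 18 genes that did not pass, against 0.497% of all genes called lower. Of the 2, Fgf9 is a bound: it was not well above background on either C array and entered the test through A-type. Fgf18 was at 0.97 and 0.65 on A and well above background on only 1 of the C arrays, with -2.05 on C1 and -3.73 on C2 (-3.70 ± 0.52, adjusted p = 0.0366), and Fgf9 was at least 3.45-fold lower in C-type. In the Wnt pathway 1 of 24 genes was called, against 0.819% of all genes. Sfrp4, a secreted Wnt modulator, was at 2.40 and 2.31 on A and at 0.12 and -0.80 on C (-2.69 ± 0.37, adjusted p = 0.0344). No gene of the hedgehog, Notch, IGF, or VEGF and angiopoietin lists was called, nor any of the complement, lipid storage, prostaglandin, cadherin, MHC or proliferation lists.

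Of the transcription factors of mesenchyme, 3 of 37 were called lower in C-type and none higher, against 0.497% and 0.322% of all genes; 2 of the 3, Ebf2 and Prrx2, were not well above background on either C array and entered the test through A-type. Ebf1, which has roles in adipocyte and B cell development, was at -0.88 and -0.79 on A and at -3.36 and -2.94 on C (-2.31 ± 0.28, adjusted p = 0.0273). Its relative Ebf2 was at least 4.02-fold lower, and the homeobox gene Prrx2 at least 2.23-fold lower. The LIM-homeobox gene Lmx1a, outside that list, was at least 6.49-fold lower, and Lmo2, a LIM-domain adaptor of transcription complexes, was at 2.15 and 2.42 on A and at -0.08 and -1.22 on C (-2.93 ± 0.45, adjusted p = 0.0445). Dach1, a transcription factor of limb and organ development, was higher in C-type, from -2.06 and -1.34 on A to 1.23 and 1.66 on C (3.15 ± 0.37, adjusted p = 0.0267), and its other probe gave 4.15. None of 16 Hox genes was called.

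Calls were rare among matrix genes, as among all genes (0.819%), so their absence is no sign that the types were alike. No gene was called among 12 fibrillar and beaded-filament collagens, 22 basement membrane genes, 22 genes of elastic fibres and microfibrils or 10 small leucine-rich proteoglycans, with medians of -0.23, -0.09, -0.08 and -0.30. Both C arrays were at least 2-fold below both A arrays for 3 of the 10 proteoglycans and above for none, against 3.3% and 1.88% of all genes. Col1a2, a chain of type I collagen, was at 8.42 and 8.55 on A and at 7.79 and 7.99 on C, a difference of -0.59 (95% interval -1.32 to 0.13). Eln, which encodes elastin, was at 7.25 and 7.41 on A and at 7.58 and 8.0 on C, a difference of 0.46 (95% interval -0.38 to 1.30).

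Tnc, which encodes tenascin C, was not well above background on either A array and was at -1.82 and -2.54 on C, at least 3.59-fold higher. Tnc was the 1 call among 14 matricellular genes, against 0.819% of all genes. Plau, the urokinase plasminogen activator, was at 0.77 and 1.13 on A, at -2.80 on C1 and at -5.36 on C2, where it was not well above background (-5.03 ± 0.73, adjusted p = 0.0377); with signals raised to the dimmest level well above background the difference was -4.06. It was the 1 call among 24 proteases and inhibitors, against 0.819% of all genes. Sulf2, which trims sulphate from heparan sulphate chains, was named after its values were seen; it was at 3.04 and 3.19 on A and at 1.02 and 0.15 on C (-2.53 ± 0.40, adjusted p = 0.0487).

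Nrcam, a cell adhesion molecule, was at 1.23 and 1.40 on A and at 3.96 and 4.49 on C (2.91 ± 0.38, adjusted p = 0.0306). Cd82, a tetraspanin, and Tnfrsf19, a receptor of the tumour necrosis factor family, both named after their values were seen, were higher by 2.11 ± 0.26 and 1.92 ± 0.28; further probes gave less, 1.20 to 1.48 for Cd82 and 0.98 for Tnfrsf19. Gja5, which encodes connexin 40, was at 1.90 and 2.13 on A and at 3.81 and 4.62 on C without passing (2.20 ± 0.37, adjusted p = 0.0535).

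Scara5, a receptor that takes up ferritin, was at 3.79 and 3.65 on A, at 0.49 on C1 and at -1.68 on C2 (-4.31 ± 0.62, adjusted p = 0.0377), while its other probe gave -2.22. Its relative Scara3 was at 1.60 and 1.90 on A and at -0.84 and -1.84 on C (-3.09 ± 0.38, adjusted p = 0.0273). For both genes the A arrays lay within 0.3 of each other and the C arrays at least 1.0 apart, with C2 the lower. Trf, which encodes the iron carrier transferrin and was named after its values were seen, was higher in C-type by 1.80 ± 0.26.

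Other genes lower in C-type and bright in A-type were Penk, Gda, Aoc3 and Arhgap36. Penk, the precursor of enkephalin peptides, was at 5.04 and 5.14 on A and at 1.91 and 0.88 on C (-3.69 ± 0.51, adjusted p = 0.0363). Gda, guanine deaminase, was at 2.72 and 3.16 on A and at -1.57 and -0.15 on C, where C1 was the lower array; its other probe gave -2.92. Arhgap36 differed by -2.85 ± 0.40. Aoc3, an amine oxidase, differed by -3.04 ± 0.28 on the probe used, while its other probe gave 0.62, so its 2 probes disagree.

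Other genes higher in C-type were Mtss1, Tcim, Nnat and Pctp. Mtss1, which couples membranes to actin, was at -1.16 and -1.21 on A and at 1.59 and 2.16 on C (3.05 ± 0.40, adjusted p = 0.0306). Nnat, which encodes the imprinted membrane protein neuronatin, was at -2.07 and -1.52 on A and at 0.60 and 1.35 on C. Tcim was higher by 3.15 ± 0.32 and Pctp, a carrier of phosphatidylcholine, by 2.96 ± 0.42. Scube2, a secreted protein that helps release hedgehog ligands and was named after its values were seen, was higher by 1.75 ± 0.25, and by 2.91 on its other probe.

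Among called genes well above background in only 1 type, Upk1b, a tetraspanin of the urothelium and mesothelium, had the highest bound on the C-type side. It was at -0.36 on C1 and -0.22 on C2, at least 13.3-fold above A-type. St8sia4, which makes polysialic acid, followed at 8.34-fold at least, Adgrg6, an adhesion receptor, at 8.32-fold at least, and Sytl2 at 5.48-fold at least. The chromatin remodeller Chd7, Sox14, the amino acid transporter Slc16a10 and Efcab6 were higher by at least 4.59-, 4.07-, 4.01- and 3.93-fold. Mx1, an interferon-induced GTPase, was at least 3.18-fold higher, the 1 call among 14 interferon-stimulated genes, against 0.819% of all genes.

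On the A-type side, Ccl8 was followed by Efhd1, a calcium-binding protein of mitochondria, at 1.00 and 0.73 on A and at least 21.0-fold lower in C-type. Lsamp, a neural adhesion protein, was at least 11-fold lower and Rbm24, a splicing regulator, at least 6.88-fold. Cmah, which converts one form of sialic acid into another, was at least 8.14-fold lower on the probe used, but its other probe gave a difference of 0.59 in the opposite direction.

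The lists of other cell types were read to see what the sorted samples held. Markers of alveolar type 2 cells, the surfactant-making epithelium, had no call among 7 tested genes but a median difference of 1.76. Their summed signal was 2.79 and 2.66 on A, 4.12 on C1 and 3.32 on C2, against 8.14 and 8.25 in the unsorted cells. Sftpc, their defining surfactant gene, was at -0.48 and -0.13 on A, at 3.14 on C1 and at 1.27 on C2 (2.51 ± 0.61, adjusted p = 0.135). Both C arrays were above both A arrays, C1 the most, and the part of such RNA in the genes higher in C-type was not tested.

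Mesothelial markers had a summed signal of -1.51 and -1.74 on A and of -0.07 and 0.03 on C, against 3.57 and 2.97 in the unsorted cells. Upk1b was called higher in C-type. Wt1, the other gene tested, was at -2.15 and -2.45 on A and not well above background on either C array. It was at least 2.49-fold lower in C-type and was not called. Msln, Upk3b, Lrrn4, Krt19 and Bnc1 did not pass the filter on dim probes. Erythroid and platelet markers stood at 1.1 on C1 and at 0.01, -0.60 and -0.36 on A1, A2 and C2, with Alas2, the haem synthesis enzyme of red cells, at 0.39 on C1 and -2.14 on C2.

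Endothelial markers differed little in sum, at 3.58 and 3.60 on A and 3.47 and 3.66 on C. Tek, the angiopoietin receptor, was the 1 call among 7 tested, against 0.819% of all genes, with a difference of -2.39 (adjusted p = 0.0487). The neutrophil list had 1 call among 4 tested, against the same share: Ly6g, which was well above background on only 1 of the C arrays. The lists of alveolar type 1 and airway epithelium, lymphatic endothelium, pericytes, cartilage, macrophages and dendritic cells, T and NK cells, B cells, mast cells and Schwann cells had no call. Of the 6 alveolar type 1 genes tested, 3 were higher and 3 lower in C-type. Akap5 was at -2.13 and -2.61 on A and at -0.69 and -0.12 on C without passing (1.97 ± 0.42, adjusted p = 0.0984). Aqp5, a water channel named after its values were seen, differed by 1.82 ± 0.33 (adjusted p = 0.0609). Pdpn went the other way, at 2.20 and 2.62 on A and at 1.41 and 1.53 on C, without passing (-0.94 ± 0.32). Of the 3 airway genes tested, 1 was higher and 2 lower in C-type. Cyp2f2, a club cell enzyme of the airway, was at 1.19 and 1.80 on A, at -1.61 on C1 and not well above background on C2, and did not pass (adjusted p = 0.0923). Scgb1a1, of the same list, was at 0.91 and 1.25 on A and at 2.84 and 2.29 on C, without passing (1.48 ± 0.76). The part of such RNA in the called genes was not tested. No call was made either among 18 immediate-early and dissociation genes, whose median was 0.05, or among 12 housekeeping genes, whose median was -0.40, with -0.25 on C1 and -0.52 on C2.

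The peribronchial and myofibroblast list had 1 call, Fgf18 above, among 12 tested, against 0.819% of all genes, and a median of -0.38. Tgfbi, a matrix protein induced by TGF-beta, was at 5.41 and 5.54 on A and at 3.83 and 3.11 on C and missed the threshold (-2.00 ± 0.33, adjusted p = 0.0519).

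The C arrays differed from each other by 2-fold or more for 2936 genes (18.9%), C1 being the higher for 1785 and C2 for 1151; the A arrays did so for 344 genes (2.22%). The median absolute difference was 0.41 between the C arrays and 0.22 between the A arrays. With 1 array on each side these differences have no test. Among genes well above background on both C arrays, C1 exceeded C2 most for Emilin2, a protein of elastic tissue, at 1.73 against -2.51, with 4.30 and 4.63 on A. Alad, an enzyme of haem synthesis, followed at 1.74 against -2.41, and then Limd2, Snupn, Thy1 and Hoxb6, with C1 minus C2 between 3.23 and 3.51. Other probes disagreed in C minus A for Alad (-0.41 against 0.86 on the probe used) and Limd2 (0.10 to 1.45 against -1.38).

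C2 exceeded C1 most for Rxra, a retinoid receptor, at 2.83 against -2.68, with -1.14 and -1.25 on A. C8g, Pcdha8, Fam124a, Cdca8 and Wnk4 followed, with C1 minus C2 from -3.79 to -3.52. For each of these 6 genes except Cdca8 the A arrays lay between the C arrays. A further probe of Rxra gave a C minus A difference of -0.82 against 1.27 on the probe used. For Cdca8 it was -2.63 against 2.09, while for C8g it was 0.25 against 0.35.

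B-type fibroblasts, whose arrays entered the fit through the shared spread, gave values that can be set beside these; any difference from A-type uses the same A arrays, so none is tested here. Npnt was at -0.04 and 0.42 on the B arrays, Itga8 at -0.04 and 0.37, and Col13a1 at -4.45 and -3.81. For these 3 genes B-type was lowest, A-type between and C-type highest, with no overlap of arrays. Lrat was at 1.15 and 1.30 on B and Rgs2 at 1.04 and 1.60, in the same order. Not every gene higher in C-type followed it. Ces1d, at 0.64 and 0.54 on B, and Vipr2, at -1.23 and -1.75, had A and B arrays that overlapped. How many genes follow this order is not given here. Efhd1 was at 3.88 and 4.01 on B, so that A-type again lay between, while Aoc3, at 2.17 and 1.99 on B, had A-type and B-type alike.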

How the data were processed

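The authors deposited 1 scanner file per array, with spot intensities from Agilent Feature Extraction (10.10.1.1, per the submitters' processing notes), and a value table on a log2 scale, with scaling and centring unstated in the sources used here. Against the scanner files, each column of that table was log2 of the processed signal minus 1 constant per array (median of each column 4.84).

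Here, log2 processed signals (control spots left out, 28 probes with only outlier-marked spots dropped) were scaled to the 75th percentile of each array over 55653 probes. Probes were named by the accession in the file through RefSeq symbols, otherwise by the file's symbol; 22760 had no name. The brightest kept probe stood for its gene. limma 3.58.1 in R 4.3.3 was fitted to 4 group means over all 8 arrays (lmFit, eBayes, Benjamini-Hochberg), the contrast being C minus A, and was tested on simulated data: 0 of 50 genes changed by 1 on the log2 scale were recovered, 23 of 50 at 2, 33 of 50 at 3 and 38 of 50 at 4, with 3 false calls. The simulation gave every array of a gene the same spread. In the data C1 and C2 differed 2-fold or more for 18.9% of genes and A1 and A2 for 2.22%. Recovery and false calls under such unequal spreads were not tested. Slide could not be used as a block, since A, B and C shared 1 slide. Array number, 2 per type, limits the precision; no spot was saturated.

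Named were the sorting antigens, the 12 highest and 12 lowest called genes measured on all 4 arrays, the 8 highest bounds in each direction, up to 4 called and 2 not called genes of each of 51 lists, and the 6 genes most different between C1 and C2 in each direction; others are said to be chosen after their values were seen. A called gene among the 12 lowest is not reported here. The genes, lists and comparison were chosen with earlier results of these data known.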

Additional observations from a re-analysis of the deposited data

How the results depend on the processing

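All 127 calls kept their direction under 16 of the 17 alternatives. Where only the arrays, their weights or the spread changed, the direction could not turn, because the groups of each called gene lay apart. With only probes well above background on all A and C arrays, 68 of the 69 still tested kept it. Cmah, whose other probe then stood for it, turned to 0.59. The count of calls was 65 with that filter (49.2% of them higher in C-type), 3 with no filter on dim probes, 0 with the 4 A and C arrays alone, 491 with the 6 fibroblast arrays, 333 with array weights and 70 with the replicate block. Leaving out 1 array in turn gave 0 to 616 calls and a share higher in C-type of 11.1% (without C2) to 20.9% (without C1). Quantile normalization, the other scalings, the authors' value table, normexp, the mean of the kept probes and eBayes with trend and robust gave 98 to 182 calls, with 35.3% to 45.3% higher. Why the calls moved was not tested.

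Replicate numbers did not pair the samples: replicate 1 minus replicate 2 in A and in C correlated at -0.07 across genes, so the block result is given only here. Of the 66 called genes named above, 38 stayed called with the replicate block, 45 with quantile normalization, 47 with normexp, 20 without C2 and 62 without C1. Of the named genes not called, Thy1 ran from -1.31 without C1 to 2.13 without C2. Mcam turned to 0.04 with the median and with the authors' table, and ran from -0.13 without C2 to 0.07 without C1, with 0.04 without A1.

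Read one array at a time, normexp lowered the numbers of genes 2-fold from both A arrays to 164 above and 227 below on C1, 333 and 607 on C2, and 93 and 147 on both. Only probes measured on all 4 arrays left 489 below on C1, 1118 on C2 and 239 on both. No filter raised those above to 1501 on C1, 2292 on C2 and 607 on both. The other 30 of 42 such counts stayed within 1.5 times. Slide as a block was not run, since A and C lie on 1 slide and the block cannot alter their contrast. Genes near background, above all on the dimmer C arrays, give only bounds.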

Other observations

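Probes without a gene name gave further differences that belong to no comparison above. In a fit over all 33488 kept probes, named or not, 125 passed an adjusted p of 0.05 in limma. Of the 12320 kept probes without a name, 29 were called (0.235%), 7 higher and 22 lower in C-type.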
